A study of Mus musculus with 6 samples.

Results

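The Siglec family receptors described here are 7 mouse genes, Siglec1, Siglece, Siglecf, Siglecg, Siglech, Cd33 and Cd22, out of 56691 gene rows in the count tables. Their rows were taken by name, as those whose Ensembl identifier maps to those symbols. The members were chosen with earlier results of these data known. The identifiers are ENSMUSG00000027322.12 (Siglec1), ENSMUSG00000030474.10 (Siglece), ENSMUSG00000039013.17 (Siglecf), ENSMUSG00000030468.13 (Siglecg), ENSMUSG00000051504.19 (Siglech), ENSMUSG00000004609.12 (Cd33) and ENSMUSG00000030577.15 (Cd22). RNA was sequenced from bone marrow-derived macrophages, primary phagocytes grown in culture from marrow precursors of 3 mice named a, b and c. On day 6 of culture, cells of each mouse received 2 µM thiothixene, an antipsychotic drug that blocks dopamine receptors, or the solvent DMSO, and RNA was taken 24 h later. That gave 3 thiothixene libraries and 3 DMSO libraries, a pair from each mouse. The labels name no strain, genotype, age or sex. The comparison asked which transcripts differed after the drug, in a study whose title concerns the repeated uptake of dead cells.

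Siglecs are cell-surface lectins of the immunoglobulin superfamily whose outermost domain binds sialic acid, the sugar that caps many glycoprotein and glycolipid chains. Most of the CD33-related members carry tyrosine motifs in their cytoplasmic tails that recruit the phosphatases SHP-1 and SHP-2 and damp activating signals. Siglec-H instead signals through the adaptor DAP12, and sialoadhesin (Siglec1, CD169) has a long ectodomain used for adhesion and capture. On macrophages these receptors read sialic acid as a mark of healthy self.

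On GRCm38, Siglec1 lies at chr2:131069220-131086765 on the minus strand. The other 6 genes lie on chromosome 7. Siglecf (chr7:43351341-43359531, plus strand), Siglecg (chr7:43408204-43418358, plus), Cd33 (chr7:43524216-43544428, minus) and Siglece (chr7:43651070-43660161, minus) lie in the same stretch of that chromosome. Cd22 (chr7:30865402-30880342, minus) and Siglech (chr7:55768178-55778925, plus) lie apart from them. RefSeq's GRCm38.p6 table of promoters, each from 250 bases before to 50 bases after an annotated start, held 6 of the 7 members. Siglec1 had no entry there, so no Siglec1 promoter was searched. The promoters of Cd33, Cd22 and Siglece are shown because these genes had the largest fitted differences among members with at least 36 counts in every library. The windows of Cd33 and Cd22 lie wholly within the gene spans given above. Their RefSeq starts are thus not the outermost annotated starts of those genes. Capitals mark GAGGAA or its reverse complement, the core letters of sites for PU.1, the myeloid transcription factor.

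Cd33 (chr7:43533122-43533421, minus strand): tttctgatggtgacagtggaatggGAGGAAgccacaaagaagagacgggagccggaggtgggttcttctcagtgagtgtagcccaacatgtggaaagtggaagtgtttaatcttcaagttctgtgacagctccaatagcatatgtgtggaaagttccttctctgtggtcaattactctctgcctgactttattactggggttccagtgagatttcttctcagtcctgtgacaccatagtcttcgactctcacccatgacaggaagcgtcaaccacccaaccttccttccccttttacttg
Cd22 (chr7:30878979-30879278, minus strand): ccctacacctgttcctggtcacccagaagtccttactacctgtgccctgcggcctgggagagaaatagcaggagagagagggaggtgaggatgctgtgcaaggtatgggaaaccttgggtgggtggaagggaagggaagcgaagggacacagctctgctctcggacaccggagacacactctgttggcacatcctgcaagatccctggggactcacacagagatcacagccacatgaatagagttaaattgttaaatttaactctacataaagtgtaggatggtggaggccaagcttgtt
Siglece (chr7:43660112-43660411, minus strand): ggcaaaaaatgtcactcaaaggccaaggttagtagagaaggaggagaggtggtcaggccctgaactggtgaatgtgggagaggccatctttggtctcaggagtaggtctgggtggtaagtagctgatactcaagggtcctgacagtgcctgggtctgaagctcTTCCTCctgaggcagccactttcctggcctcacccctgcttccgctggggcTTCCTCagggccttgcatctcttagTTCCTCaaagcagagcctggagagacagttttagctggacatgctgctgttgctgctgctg

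Searched on both strands, GAGGAA stood in the promoters of 5 of the 6 members, all but Cd22, and in 28.3% of 32851 promoters of 300 bases. Siglece held 3 matches, at -87, -36 and -11 from the start site, and Cd33 held a single match, at -226. Of the other motifs searched, CACGTG was found in Siglech alone (7.15% of all promoters), and neither TGANTCA (7.81%) nor the interferon-stimulated response element (3.44%) was found in any of the 6. In Siglech, CACGTG began at -56 and GAGGAA at -4, so no matches overlapped. These matches describe letters in the window and not bound sites.

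Levels spanned a wide range. Given as CPM, the count scaled to library size (by TMM), per kilobase of annotated exon, Siglec1 averaged 38.8 over the 6 libraries, Cd33 averaged 7.57, Siglece 2.49, Cd22 1.60, Siglecf 0.279, Siglecg 0.18 and Siglech 0.0305. Siglec1 was above Cd33 in 6 of 6 libraries, and Cd22 was above Siglecf in 6 of 6. Siglece and Cd22 were not ordered, since Cd22 was the higher in all 3 thiothixene libraries and Siglece in all 3 DMSO libraries. Siglecf and Siglecg were not ordered either, with Siglecf above Siglecg in 4 of 6 libraries. Cd33 was above Siglece in 5 of 6, the exception being the DMSO culture of mouse b. Siglec1 stood above 90.0% of the tested protein-coding genes on this scale, Cd33 above 53.5%, and Siglecg above 3.4%. Siglec1 alone made up 68.2% to 83.0% of the family's summed level per kilobase with thiothixene and 57.5% to 81.3% with DMSO.

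**Figure D1:**
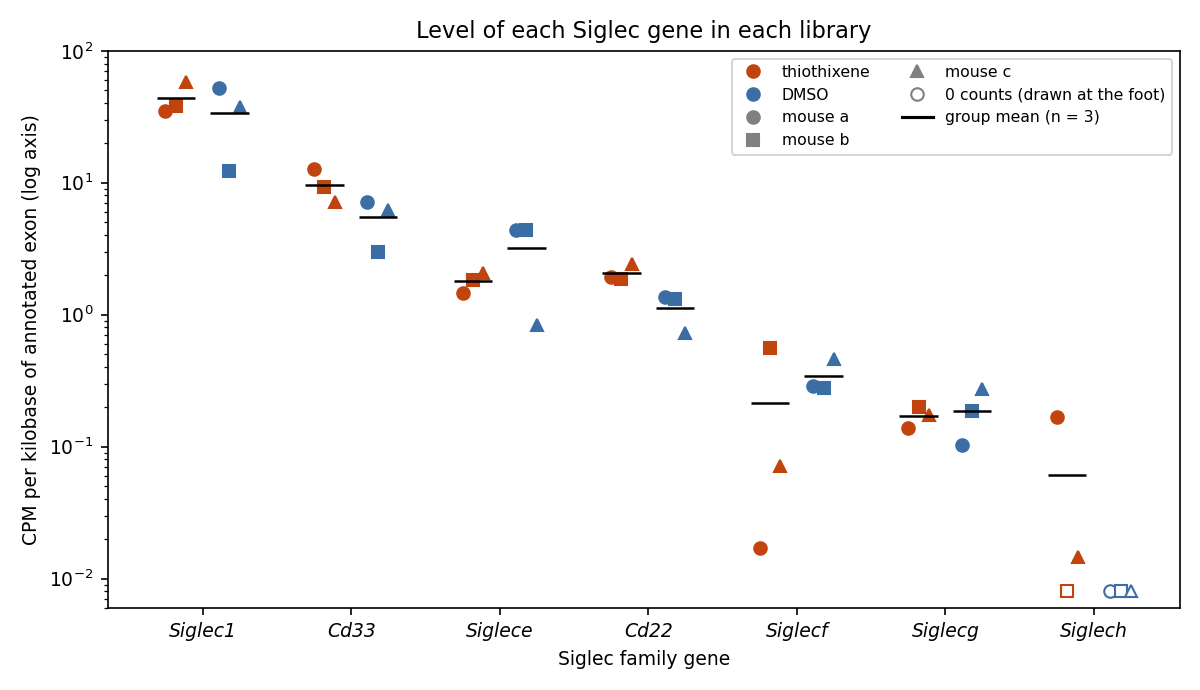
Level of each Siglec gene in each library, in CPM per kilobase of annotated exon on a log axis, thiothixene left of DMSO, with a symbol for each mouse and a bar for each group mean (n = 3). Siglec1 is highest in every library, Cd33 and Cd22 lie higher in the 3 thiothixene libraries, and open symbols at the foot mark Siglech libraries with 0 counts.

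Gene totals were 18548095 to 20264090 counts in thiothixene libraries and 10472349 to 22297520 in DMSO libraries, the thinnest being DMSO from mouse b. Replicates differed widely. Fitted quality weights, low where a library stands apart, were 0.537 for thiothixene from mouse a, 0.209 for DMSO from mouse b and 0.228 for DMSO from mouse c, and 2.283 to 6.227 for the other 3. Across genes, log2 CPM of mice b and c correlated at 0.981 with thiothixene and at 0.825 with DMSO. The DMSO library of mouse b was low in long transcripts, its longest 25% of genes standing at -1.05 on the log2 scale relative to its shortest 25%. The same difference was 0.56 for DMSO from mouse c and -0.07 to 0.33 in the other 4 libraries. Genes in the top 25% by GC content, relative to the bottom 25%, stood at 1.14 in DMSO from mouse b, at -1.26 in DMSO from mouse c and at -0.66 to 0.38 in the other 4. The summed CPM of 10 macrophage identity genes was 11700 to 13400 in thiothixene libraries and 11100 to 19000 in DMSO libraries. The lysozyme gene Lyz2 was the highest of them. The receptor gene Csf1r had 1140 to 1200 CPM with thiothixene and 1200 to 1900 CPM with DMSO. Mpeg1 went the other way, with 2740 to 2890 CPM with thiothixene and 1800 to 2380 CPM with DMSO. Of the 9 tested, 1 had groups apart with thiothixene higher and 1 with thiothixene lower. Over all tested genes, 6.65% had groups apart in either direction. Itgam, the CD11b integrin gene of myeloid cells, went against its label, with 1 count in thiothixene from mouse c and 0 in the other 5 libraries. Of its exon bases, 68.7% are shared with Gm49368 on the same strand, which had 28, 3 and 31 counts with thiothixene and 10, 5 and 38 with DMSO. The part of this overlap in the Itgam counts was not tested.

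Of the 7 members, 6 had enough counts to be tested, and Siglech did not. EdgeR's quasi-likelihood test with Benjamini-Hochberg adjustment over 14856 genes called 0 of the 6 at an adjusted p of 0.05, where 0.0% of all tested genes were called. At an unadjusted p under 0.05 it had 0 of the 6, against 1.72% of all tested genes. DESeq2 also called 0 of the 6 after adjustment, against 0.00815% of the genes it tested, and limma-voom 0 of the 6, against 0.0%. In each of these Cd22 alone, 1 of the 6, had an unadjusted p under 0.05, against 1.9% of all genes in DESeq2 and 2.01% in limma-voom. Limma-voom with library quality weights called 0 of the 6, against 0.168% of tested genes, and edgeR without a low-count filter called 0 of the 7, against 0.00408%. With the weights, Siglece and Cd22 had limma-voom unadjusted p of 0.0216 and 0.0405. Without the filter, Cd33 had an edgeR unadjusted p of 0.0368. The share of all genes under an unadjusted 0.05 in these fits was not counted. The fitted log2 fold changes, thiothixene over DMSO, were above 0 for 3 members and below 0 for 3. Their median was 0.12, against -0.04 over all tested genes. Without the 3 libraries that stood apart, mouse a was alone under DMSO. The log2 fold changes were then 0.65 for Cd22, 0.21 for Cd33, -0.11 for Siglec1, -1.15 for Siglece, 0.12 for Siglecf and 0.87 for Siglecg. In those 3 remaining libraries the groups did not overlap for 4 of the 6, but neither did they for 77.4% of all tested genes. With bulk RNA, fewer cells that carry a receptor and less RNA per cell cannot be told apart. For Cd22 and Cd33 each thiothixene library exceeded every DMSO library, as for 3.88% of tested genes, and 6.65% of tested genes had groups that did not overlap in either direction.

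**Figure D2:**
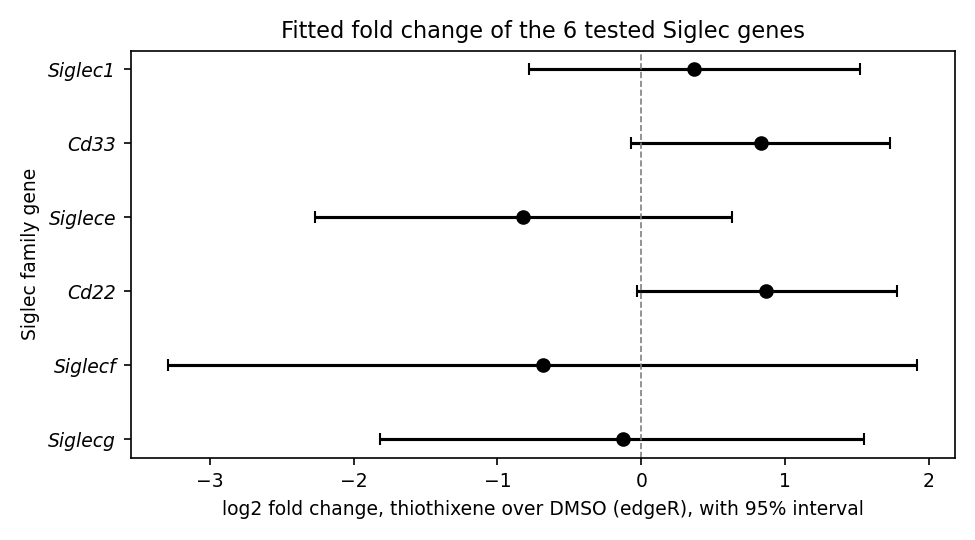
Fitted log2 fold change of the 6 tested Siglec genes, thiothixene over DMSO, from edgeR with 95% intervals. All 6 intervals cross 0, those of Cd22 and Cd33 only just, from -0.03 and -0.07 upward.

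Cd22, an inhibitory receptor best known from B cells and also described in mouse microglia, had 206, 176 and 245 counts with thiothixene (mice a to c, in that order throughout) and 154, 59 and 86 counts with DMSO. These correspond to 9.78, 9.45 and 12.1 CPM with thiothixene, against 6.88, 6.59 and 3.67 CPM with DMSO. Each thiothixene library was above every DMSO library. Group means were 10.4 ± 1.43 CPM under thiothixene and 5.71 ± 1.78 CPM under DMSO (SD, n = 3 each). The fitted fold was 1.83, with a 95% interval from 0.979 to 3.42 (log2 fold change 0.87, SE 0.39; edgeR unadjusted p = 0.0564, adjusted p = 0.9998). Within mice, thiothixene minus DMSO was 0.50 (mouse a), 0.51 (b) and 1.69 (c) in log2 CPM. The cultures of mice a and b thus differed alike and those of mouse c by more. In the lowest setting, which left out mouse c, the log2 fold change was 0.52.

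Gm29439, annotated as antisense to Cd22, overlaps 9.5% of its exon bases, and 5.89% of the 75-base words of Cd22 transcripts recur there. It had 39, 33 and 22 counts in the thiothixene libraries and 18, 8 and 0 in the DMSO libraries. Since the strand setting of the counting is not given, reads of this pair cannot be told apart, and the level of Cd22 is uncertain to that extent. The B cell genes Ms4a1 and Pax5 had 0 counts in all 6 libraries, and 5 of the 11 listed B cell markers were at 0 throughout. Their summed CPM, 132 to 192 with thiothixene and 138 to 184 with DMSO, came mostly from the adaptor gene Blnk, which macrophages also express. Cd79b, a subunit of the B cell antigen receptor, was detected in every library, at 1.42 to 3.44 CPM with thiothixene and 2.50 to 6.70 CPM with DMSO. Ebf1, a transcription factor of B cells and stromal cells, had 1, 2 and 43 counts with thiothixene and 0, 7 and 114 with DMSO. The part of such cells in the Cd22 counts was not tested.

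Cd33, the namesake of the CD33-related group and a myeloid receptor, had 98.3, 71.8 and 55.9 CPM with thiothixene (mice a to c), against 55.4, 23.2 and 48.4 CPM with DMSO. The groups did not overlap, but the margin was that between 55.9 CPM in thiothixene from mouse c and 55.4 CPM in DMSO from mouse a. On raw gene totals, without TMM scaling, these libraries had 56.4 and 58.2 CPM and the groups overlapped, where 6.42% of tested genes had groups apart. With RLE scaling they did not overlap, and 6.68% of tested genes had groups apart. Group means were 75.3 ± 21.4 CPM under thiothixene and 42.4 ± 16.9 CPM under DMSO (SD, n = 3 each). The fitted fold was 1.78, with a 95% interval from 0.95 to 3.32 (log2 fold change 0.83, SE 0.39; edgeR unadjusted p = 0.0674, adjusted p = 0.9998). Within mice the log2 difference was 0.82 (mouse a), 1.62 (b) and 0.21 (c), so thiothixene was higher in 3 of 3 mice, as in 7.49% of tested genes. Cd33 has 7771 annotated exon bases and was lowest in the DMSO library that was low in long transcripts. Without that library the log2 fold change was 0.53 (SE 0.275), and with offsets for each library's GC and length skew it was 0.76 (SE 0.239). The part of transcript length in the Cd33 values was not tested.

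**Figure D3:**
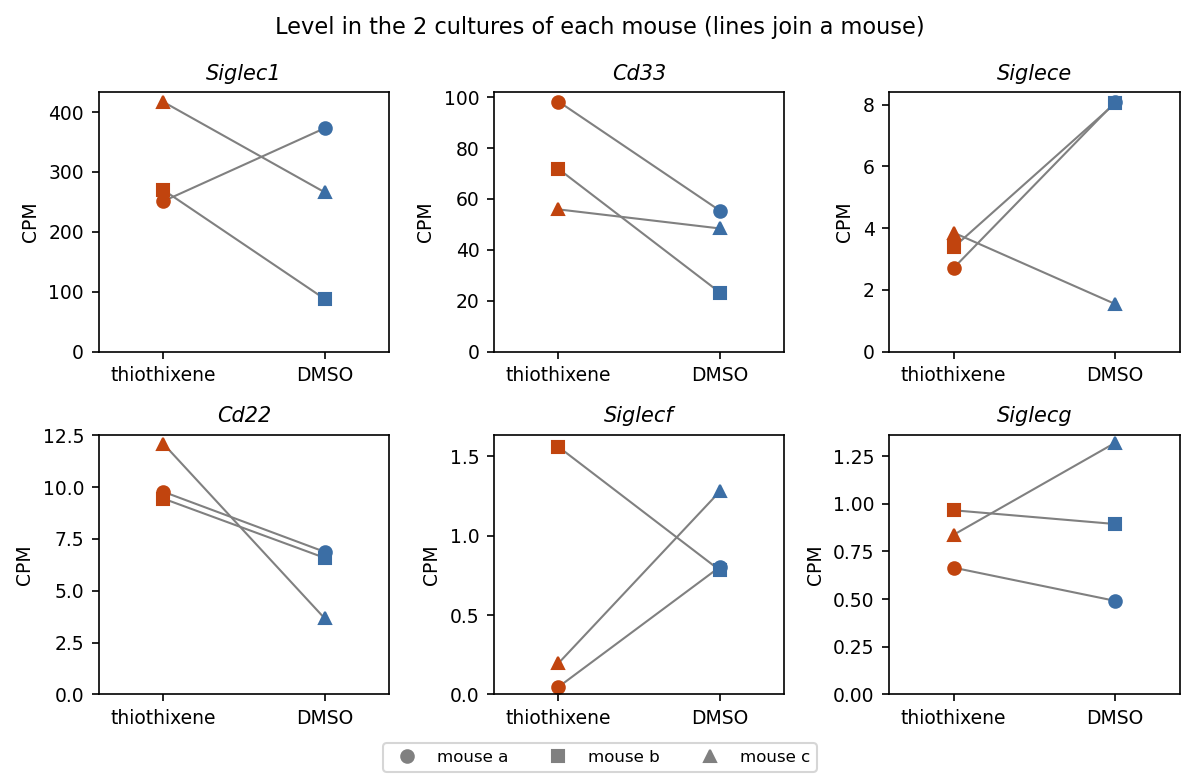
Level of the 6 tested Siglec genes in CPM, thiothixene left and DMSO right, with a line for each mouse. The Cd33 and Cd22 lines are lower on the DMSO side in all 3 mice, while those of Siglec1, Siglece, Siglecf and Siglecg rise in some mice and fall in others.

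Siglec1, the sialoadhesin of tissue-resident macrophages, was the most abundant member. It had 251, 270 and 417 CPM with thiothixene (mice a to c), against 373, 87.9 and 266 CPM with DMSO. The groups overlapped, and the DMSO culture of mouse b was far below the other 5. Among DMSO libraries the highest was 4.24 times the lowest, against 1.66 times among thiothixene libraries. Group means were 313 ± 90.8 CPM under thiothixene and 242 ± 144 CPM under DMSO (SD, n = 3 each). The log2 fold change was 0.37 (SE 0.50; edgeR adjusted p = 0.9998), with a fold of 1.29 and a 95% interval from 0.582 to 2.86. Thiothixene was lower in mouse a (-0.57) and higher in mice b (1.62) and c (0.65). Without DMSO from mouse b the log2 fold change was -0.03, and with offsets for each library's GC and length skew it was 0.08. Siglec1 transcripts are long, with 7143 annotated exon bases, and the DMSO library of mouse b was low in long transcripts. The part of transcript length in the Siglec1 values was not tested.

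Interferon commonly induces Siglec1 in macrophages, so 25 type I interferon response genes were set beside it. Their log2 fold changes were below 0 for 24 of 25, with a median of -0.56, against 8121 of 14856 tested genes below 0. By edgeR 0 of the 25 passed the test, and 1 had an unadjusted p under 0.05, against 1.72% of all tested genes. That gene was Ifit3, at -1.19 (SE 0.40). The most abundant were Oasl2 and Oas3, genes of the antiviral oligoadenylate synthetase family. Oasl2 was at -0.56 (SE 0.44) and Oas3 at 0.26 (SE 0.37). Siglec1 at 0.37 was above all 25, the highest of which was Oas3, but its sign turned without DMSO from mouse b. Over libraries, the list's median deviation was -0.20, -0.76 and 0.26 with thiothixene and 0.20, 0.05 and 0.58 with DMSO for mice a, b and c. The list's median was thus lower with thiothixene in all 3 mice, while Siglec1 was lower in mouse a and higher in mice b and c.

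Markers of CD169+ tissue macrophages, a list of 10 genes, had 7 tested members. All 7 log2 fold changes were below 0, against 8121 of 14856 tested genes. Their median was -0.64. By edgeR 0 of the 7 passed the test, and 2 had an unadjusted p under 0.05, against 1.72% of all tested genes. These were Cd163, the haemoglobin scavenger receptor, at -1.45 (SE 0.48), and Spic, a transcription factor of red pulp macrophages, at -0.89 (SE 0.35). Mrc1, the mannose receptor, and Cd5l, a secreted scavenger-receptor family protein, were the most abundant, at -0.17 (SE 0.41) and -0.01 (SE 0.38). The summed CPM of the list was 1160 to 1350 with thiothixene and 1340 to 1500 with DMSO. Clec4f, a Kupffer cell marker, had 0 counts in all 6 libraries.

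Siglece, an inhibitory receptor of mouse neutrophils and macrophages, was scarce and uneven. It had 2.71, 3.38 and 3.85 CPM with thiothixene (mice a to c), against 8.08, 8.04 and 1.54 CPM with DMSO. The 3 thiothixene values lay close together and between the DMSO values, of which mouse c gave the lowest. Means were 3.31 ± 0.573 CPM under thiothixene and 5.89 ± 3.77 CPM under DMSO (SD, n = 3 each), and the log2 fold change was -0.82 (SE 0.63; edgeR adjusted p = 0.9998). Within mice the log2 difference was -1.54 (mouse a), -1.22 (b) and 1.27 (c). Without DMSO from mouse c the log2 fold change was -1.28, and without mouse c, in a fit blocked by mouse, it was -1.40. The same fit without mouse a gave 0.03, with the sign turned. Neutrophil markers had summed CPM of 338 to 406 with thiothixene and 369 to 862 with DMSO, the highest in the DMSO culture of mouse b. All 10 tested neutrophil markers had log2 fold changes below 0, against 8121 of 14856 tested genes. By edgeR 0 of the 10 passed the test, and 1 had an unadjusted p under 0.05, against 1.72% of all tested genes. That gene was Retnlg, at -1.53 (SE 0.63). The defining marker Ly6g was at 0 with thiothixene and at 0.447 CPM or less with DMSO. S100a9 was the most abundant. The part of these cells in the Siglece values was not tested.

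Siglecf, a receptor of eosinophils and alveolar macrophages, had 1, 29 and 4 counts with thiothixene (mice a to c), against 18, 7 and 30 counts with DMSO. In CPM these were 0.0475, 1.56 and 0.197 with thiothixene and 0.804, 0.782 and 1.28 with DMSO. The thiothixene library of mouse b was the highest of all 6, and the other thiothixene libraries were the lowest. The log2 fold change was -0.68 (SE 1.14; edgeR adjusted p = 0.9998), with a 95% interval from -3.29 to 1.92. Without thiothixene from mouse b it was -2.90. Summed eosinophil markers were 11.4 to 15.9 CPM with thiothixene and 27.3 to 33.1 CPM with DMSO. The chemokine receptor gene Ccr3 led them by its mean. Ccr3 had a log2 fold change of -1.44 (SE 0.40, edgeR adjusted p = 0.9998), and Il5ra had 0 counts throughout. Epx, too low for the test, had 4, 5 and 2 counts with thiothixene (0.268 CPM or less) and 0 in each DMSO library. Prg2, an eosinophil granule protein gene, had 18, 93 and 66 counts with thiothixene and 74, 60 and 74 with DMSO. Like Siglecf, Prg2 was lowest in thiothixene from mouse a, alone among the 4 tested eosinophil markers. Ccr3 was lowest in thiothixene from mouse b (4.89 CPM), where Siglecf was highest. Summed alveolar macrophage markers were 358 to 512 CPM with thiothixene and 242 to 369 CPM with DMSO. Chil3 was the most abundant by its mean over all 6 and was lower in each thiothixene library than in every DMSO library, at -0.50 (SE 0.27). Fabp4, a fatty acid binding protein gene, was the other way round at 1.04 (SE 0.44), as was Atp6v0d2, a proton pump subunit gene, at 1.22 (SE 0.31), both with an edgeR adjusted p of 0.9998. Of the 5 tested alveolar macrophage markers, 2 thus had groups apart with thiothixene higher and 1 with thiothixene lower. Over all tested genes, 6.65% had groups apart in either direction. The part of such cells in the Siglecf counts was not tested.

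Siglecg, the B cell receptor that binds CD24, had 14, 18 and 17 counts with thiothixene (mice a to c), against 11, 8 and 31 counts with DMSO. Means were 0.823 ± 0.151 CPM under thiothixene and 0.902 ± 0.416 CPM under DMSO (SD, n = 3 each). The DMSO values spanned the thiothixene values, and the log2 fold change was -0.13 (SE 0.74; edgeR adjusted p = 0.9998), with a 95% interval from -1.82 to 1.55. Without DMSO from mouse c it was 0.29. Of the 75-base words of Siglecg transcripts, 2.79% recur in Gm29791, so its level is uncertain to that extent. Siglece, Siglecf and Siglech shared 0 such words with transcripts of other genes, and Siglec1 and Cd33 shared 0.594% and 0.0758%.

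Siglech, a marker of plasmacytoid dendritic cells and microglia, had 12, 0 and 1 counts with thiothixene (mice a to c) and 0 counts in each DMSO library. A count of 0 allows up to 0.161 CPM in the thiothixene culture of mouse b and up to 0.134, 0.335 and 0.128 CPM in DMSO from a, b and c. The 13 counts of the thiothixene libraries were at least 3.96-fold higher in CPM than the limit of 3 counts over the DMSO group. Without mouse a, a single thiothixene count remained and no fold can be given. Of 10 plasmacytoid dendritic cell markers, 3 (Ly6d, Klk1 and Cd209d) had 0 counts in all 6 libraries. Tcf4, Runx2 and Ccr9 of this list were detected in every library, Tcf4 at 54.9 to 57.1 CPM with thiothixene and 39.3 to 85.9 CPM with DMSO. The list summed to 260 to 317 CPM with thiothixene and 199 to 352 CPM with DMSO, led by Lair1, an inhibitory receptor gene that macrophages also express. The part of such cells in the Siglech counts was not tested. Basophil and mast cell markers summed to 3.92 to 5.72 CPM with thiothixene and 3.58 to 5.40 CPM with DMSO, led by Hdc over all 6 libraries and by Kit with thiothixene, and stromal markers to 57.5 to 301 CPM with thiothixene and 102 to 177 CPM with DMSO, led by Col1a1.

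Genes that act with the Siglecs were set beside them. EdgeR called 0 of them after adjustment, where 0.0% of all tested genes were called. At an unadjusted p under 0.05 it had 0 of them, against 1.72% of all tested genes. Sialic acid synthesis and transport genes had 3 of 8 tested members above 0 and a median log2 fold change of -0.08. Renbp, renin-binding protein, and Slc17a5, the lysosomal sialic acid exporter, were the most abundant, at -0.12 (SE 0.42) and 0.08 (SE 0.27). Sialyltransferases, which attach the ligand sugar, had 6 of 12 above 0 and a median of -0.01. St3gal5, the GM3 ganglioside synthase, was at -0.24 (SE 0.27). St3gal1, which caps O-linked chains, had 71.9, 79.0 and 79.6 CPM with thiothixene (mice a to c), against 69.4, 45.5 and 62.3 CPM with DMSO (0.38, SE 0.28). Of the 12, 2 had each thiothixene library above every DMSO library, as did 3.88% of all tested genes. These were St3gal1 and St3gal3 (0.50, SE 0.37).

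Sialidases and sialic acid esterases had 3 of 5 above 0 and a median of 0.22. Neu1, the lysosomal sialidase, was at 0.23 (SE 0.33), and Ctsa, the protective protein that stabilises it, was at -0.04 (SE 0.39). Partners of Siglec signalling had 8 of 15 above 0 and a median of 0.03. Tyrobp, which encodes DAP12, had 226, 467 and 464 CPM with thiothixene and 339, 1070 and 136 CPM with DMSO for mice a, b and c, with a log2 fold change of -0.41 (SE 0.67). The DMSO libraries thus held both its highest and its lowest value. Inpp5d, the inositol phosphatase SHIP-1, was at -0.03 (SE 0.29). Glycoproteins that carry Siglec ligands had 2 of 6 above 0 and a median of -0.27, with Ptprc, the CD45 phosphatase, at 0.06 (SE 0.50) and Lgals3bp at -0.18 (SE 0.34).

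**Figure D4:**
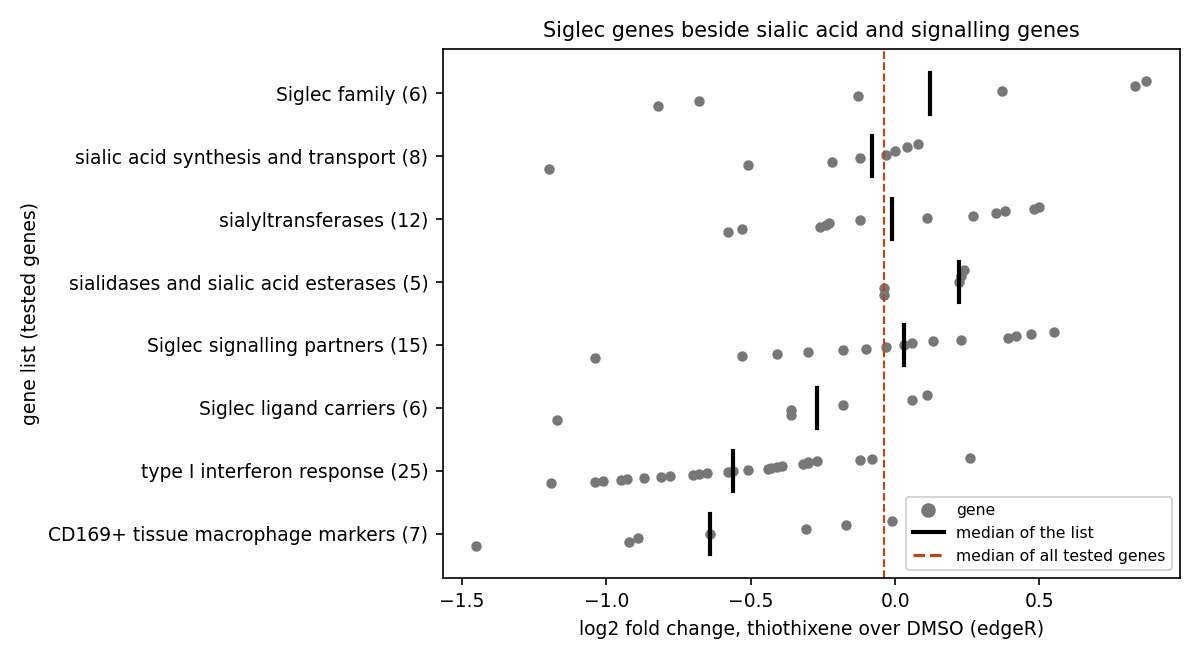
Log2 fold change, thiothixene over DMSO, of every tested gene in the Siglec family and 7 related lists, with the number of tested genes in brackets. Black bars are list medians and the dashed line is the median of all tested genes, -0.04. The 6 Siglec genes lie on both sides of it, and 24 of 25 interferon genes lie below 0.

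The genes whose pattern over the 6 libraries was most like each tested member were those with the smallest root mean square difference in centred log2 CPM, among 11953 named genes. For Cd33 they were Plxnc1 (0.106), Wnt2b (0.107) and Nr6a1 (0.112), and for Cd22 they were Cd4 (0.156), Tmem14a (0.165) and Slc6a8 (0.169). Siglec1 was nearest to Zfp109 (0.166), Nos1ap (0.187) and Zfp512b (0.202), which shared its low value in the DMSO culture of mouse b. Siglece was nearest to Kmt5c (0.183), Lbp (0.183) and Cbx7 (0.199), and Siglecg to Tnfsf9 (0.0796), Dlc1 (0.152) and Timm9 (0.159). The nearest to Siglecf were Efcab9 (0.451), Ramp1 (0.507) and Nr3c2 (0.53), a looser match. Plxnc1, a semaphorin receptor gene, had 284, 223 and 204 CPM with thiothixene (mice a to c), against 184, 77.4 and 166 CPM with DMSO. No other member of the family was among these nearest genes. Siglec1, Siglece and Siglecf varied over libraries more than 74.8%, 80.5% and 92.7% of tested genes, and Cd22 and Cd33 more than 57.4% and 66.9%.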

How the data were processed

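RNA sequencing of 6 libraries was read from tables of whole-number counts per gene that the authors deposited, not normalized, with 56691 genes. Another 5 rows, holding no gene name, were left out; the row of reads outside genes held 43.07% to 44.35% of each table. Per the submitters' processing notes the tools were STAR 2.7.11b, Trim Galore 0.6.10, FastQC 0.11.8 and DESeq2 1.44, with mm10 as build. How genes were counted, and on which strand, is not given in the sources read. Symbols, positions and exon lengths came from a GENCODE annotation of GRCm38, in which 52073 identifiers matched without version numbers and 4618 did not.

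Counts were fitted with edgeR 4.0.16 (R 4.3.3), quasi-likelihood, TMM scaling, its expression filter, treatment as the only term and Benjamini-Hochberg adjustment over 14856 genes. An SE is the log2 fold change's size divided by the root of its F. CPM use TMM-scaled library sizes, and within-mouse differences use log2 CPM with a prior count of 2. The script was tested on simulated data. Alternatives used DESeq2 1.42.0 and limma 3.58.1. The members, lists and tests were chosen with earlier results of these data known. Named are the members, the 2 most abundant genes of each list (1 for marker lists) as none was called, and the 3 nearest genes of each tested member; further genes were chosen after their values were seen.

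The titles name mouse a, b or c under both treatments, which pairs the libraries by label. Paired libraries' deviations from their groups had correlations of -0.131 (mouse a), 0.318 (b) and -0.301 (c), and the highest correlation, 0.486, was between thiothixene from mouse a and DMSO from mouse c. Limits from 0 counts (3 counts) cover counting error only.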

Additional observations from a re-analysis of the deposited data

Results flagged for a closer look

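In thiothixene-treated cells of mouse a, Siglech had 12 counts, a gene too low for the test and with 0 counts in every DMSO library. That is above the limit of 3 counts that a count of 0 allows. The groups, of 3 libraries each, are too small for a test of single outlying libraries.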

How the results depend on the processing

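Across all alternatives 0 Siglec members were called. Cd22 kept its direction in 19 of 19 alternatives (0.52 to 1.12) and Cd33 in 19 of 19 (0.21 to 1.23). With the mouse as a replicate block they were at 0.91 and 0.88, and the block changed no call. The sign turned for Siglec1 with library quality weights (-0.10), without the 3 libraries that stand apart (-0.11) and without DMSO from mouse b (-0.03), the range over left-out libraries or mice being -0.03 to 1.14 (single libraries -0.03 to 0.83). It turned for Siglecf without those 3 (0.12; range over left-out libraries or mice -3.22 to -0.13), and for Siglecg with the weights (0.70) and without those 3 (0.87; range -0.43 to 0.29, and 0.28 without mouse c). For Siglece the range was -1.40 to 0.03. The cause was not tested. Over all genes 0 calls became 1 without a low-count filter, 2 in DESeq2, 25 with quality weights, 0 to 45 without a library or mouse and 1105 without those 3, a fit with a lone DMSO library, from mouse a, assumed to vary like the others. The count of 2 members whose groups did not overlap was 1 on raw gene totals, as Cd33 then overlapped, 2 with RLE scaling and 4 without those 3, where 77.4% of all tested genes had groups apart. These counts, and the offsets for GC content and length, were chosen after the data were seen. The stricter filter removed Siglecf and Siglecg. Depth limits Siglecf, Siglecg and Siglech, and the DMSO library of mouse b is the thinnest.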
